A study of Homo sapiens with 6 samples.

Results

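The 38 genes described here encode the enzymes that load amino acids onto transfer RNA, together with 3 proteins that hold some of these enzymes in a complex. They comprise 19 cytosolic aminoacyl-tRNA synthetase genes, 16 mitochondrial ones and the 3 scaffold genes AIMP1, AIMP2 and EEF1E1. They were taken by name, through the Ensembl ID of each symbol, from the 57905 gene IDs of the expression table, and all 38 were found. Genes of the family outside this list were not analysed here. RNA had been sequenced from Huh7 cells, a human hepatoma line grown in serum-containing medium. Cells were transfected with a scrambled siRNA (siControl) or with an siRNA against ASGR1 (siASGR1) and were harvested 72 h later. The product of ASGR1 is the main chain of the hepatocyte receptor that clears desialylated glycoproteins. Each group had 3 libraries, so both groups were siRNA-treated cells of the same line and no untransfected cells were included. Whether the libraries of a group came from separate cultures is not in the labels, so each p-value reflects only how far these libraries vary, and that variation may be technical.

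An aminoacyl-tRNA synthetase joins 1 amino acid to its matching tRNAs with the use of ATP, and this step fixes which amino acid the ribosome inserts for a codon. Cytosolic translation and the translation of the few proteins encoded by mitochondrial DNA use mostly separate synthetases, all of them encoded in the nucleus. The lysyl enzyme (KARS1) and the glycyl enzyme (GARS1) are exceptions, since 1 gene makes both the cytosolic and the mitochondrial form. In animal cells several cytosolic synthetases sit in a multisynthetase complex around the scaffold proteins AIMP1, AIMP2 and EEF1E1. When charged tRNA runs short, the kinase GCN2 (EIF2AK4) phosphorylates eIF2, translation of the transcription factor ATF4 increases, and many cytosolic synthetase genes are among its known targets.

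The libraries rested on 16326000 to 19333000 fragments, and the rebuilt reads of a synthetase or scaffold gene ranged from 140 to 12507 per library. Expression is given as FPKM, a fragment count divided by exon length and by library depth, so levels can be compared between genes. Each value is relative to the total of its library, so comparison between libraries also depends on the scaling, as described below. ASGR1 was 17.3 ± 0.38 FPKM in siControl and 4.71 ± 0.11 in siASGR1 in the table used here (mean ± SD, n = 3), whereas the deposited single files gave 14.8 ± 0.90 in siASGR1. That gene was the only one that differed between the deposited sources. All 8 hepatocyte markers were higher in siASGR1, with summed levels of 3589 to 3732 FPKM in siControl and 6668 to 6759 in siASGR1. The 6 fibroblast markers summed to 5.49 to 6.62 FPKM in siControl and 0.59 to 0.85 in siASGR1, and 2 of them (COL1A1 and COL1A2) were high enough to be tested and were lower. The 5 immune markers summed to 68.7 to 76.0 FPKM and 114 to 118 FPKM, nearly all of it LYZ, with PTPRC, CD3E and CD68 at most 0.21. The 3 endothelial markers matched summed to at most 0.21 FPKM in any library, and KDR was at 0 in all of them. The part of these marker differences in the results below was not tested. In bulk RNA, fewer cells of a type and less RNA per cell cannot be told apart.

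In siControl the cytosolic synthetases were mostly expressed at higher levels than the mitochondrial ones. The cytosolic genes had a median of 37.8 FPKM, from 5.34 (HARS1) to 142.5 (AARS1), and the mitochondrial genes a median of 7.12 FPKM, from 1.36 (CARS2) to 60.6 (IARS2). Of the 10 highest, 9 were cytosolic. AARS1, the alanyl enzyme, stood first at 142.5 ± 2.21 FPKM, followed by GARS1 at 94.6 ± 0.55, QARS1 (glutaminyl) at 86.7 ± 1.79 and IARS2 at 60.6 ± 3.42. Each of the first 3 lay above the next gene in every siControl library, whereas IARS2, FARSA and EPRS1 (60.6, 58.7 and 57.5 FPKM) overlapped their neighbours in that order. Along the whole order, 20 of 37 neighbouring pairs did not overlap between libraries. IARS2, the mitochondrial isoleucyl enzyme, was the only mitochondrial gene above 20 FPKM, and CARS1, WARS1 and HARS1 were the 3 cytosolic genes under 10 FPKM. The scaffold genes were at 11.4 ± 0.81 (EEF1E1), 10.8 ± 0.31 (AIMP2) and 6.28 ± 0.74 FPKM (AIMP1).

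**Figure D1:**
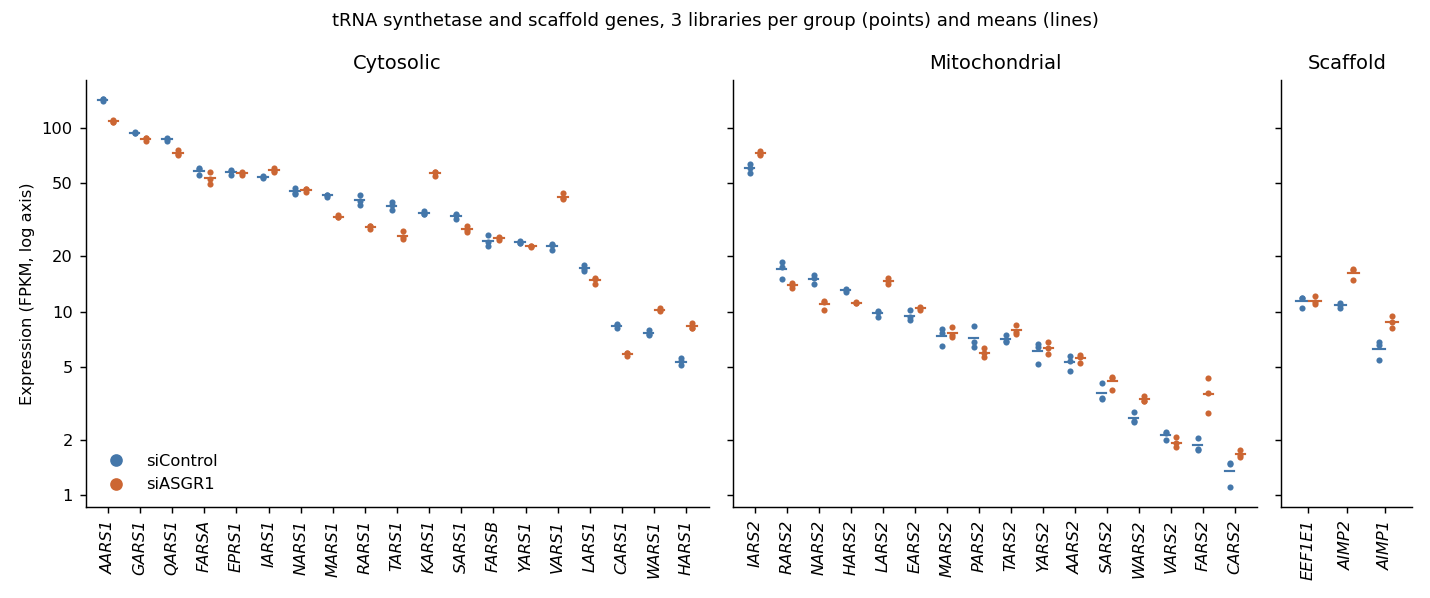
Expression of each gene in FPKM on a log axis, with 1 point per library (3 siControl in blue, 3 siASGR1 in orange) and a line at each group mean, ordered by siControl level within the cytosolic, mitochondrial and scaffold sets. AARS1 is highest in both groups, and KARS1 and VARS1 stand out among the cytosolic genes for siASGR1 points well above the siControl points.

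The order changed little at the top and the bottom after ASGR1 siRNA, as the plot of levels by library shows. AARS1, GARS1, QARS1 and IARS2 kept the first 4 places and CARS2 the last. KARS1 moved from place 12 to 6 and VARS1 from 16 to 10, while CARS1 moved from 25 to 32 and TARS1 from 11 to 14. Summed over genes, cytosolic synthetases took 829 to 846 FPKM per siControl library and 778 to 791 per siASGR1 library. The mitochondrial sum was 165 to 174 FPKM and 179 to 185 FPKM, and the scaffold sum 27.5 to 29.5 FPKM and 35.0 to 37.4 FPKM. None of these 3 sums overlapped between groups, and no test was made on sums over the chosen genes. The direction of the cytosolic sum depended on the scaling: with median-of-ratios scaling it was 788 to 806 FPKM in siControl and 816 to 843 in siASGR1, so it was higher and not lower. The mitochondrial and scaffold sums were higher in siASGR1 with either scaling (157 to 166 against 188 to 194 FPKM, and 26.1 to 27.8 against 36.7 to 39.7 FPKM, with median-of-ratios scaling).

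All 38 genes passed the filter on low values and were tested with limma on log2(FPKM + 1). In siASGR1, 11 were higher and 12 lower at an adjusted p under 0.05, which is 28.9% and 31.6% of the list, against 20.9% higher and 40.4% lower of all 13568 genes tested. Together these were 23 of 38 genes (60.5%), close to the 61.3% of all tested genes called in either direction. Their median log2 fold change was 0.04, and that of all tested genes was -0.13. This downward offset of the typical gene depended on scaling: median-of-ratios scaling, which centres the typical gene, raised the median of all tested genes by 0.13, to -0.01. With that scaling 18 members were higher and 6 lower (47.4% and 15.8%), against 29.9% and 28.9% of all genes. Those 24 called genes (63.2%) compare with 58.8% of all tested genes. With quantile normalization 15 were higher and 11 lower, against 28.7% and 29.6%. The 11 increases and 6 of the 12 decreases were called with values as deposited and with median-of-ratios scaling. The libraries of the groups did not overlap for 14 members with siASGR1 higher and 14 with siASGR1 lower, against 23.5% and 43.8% of all tested genes (28 of 38, or 73.7%, against 67.3% in either direction).

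**Figure D2:**
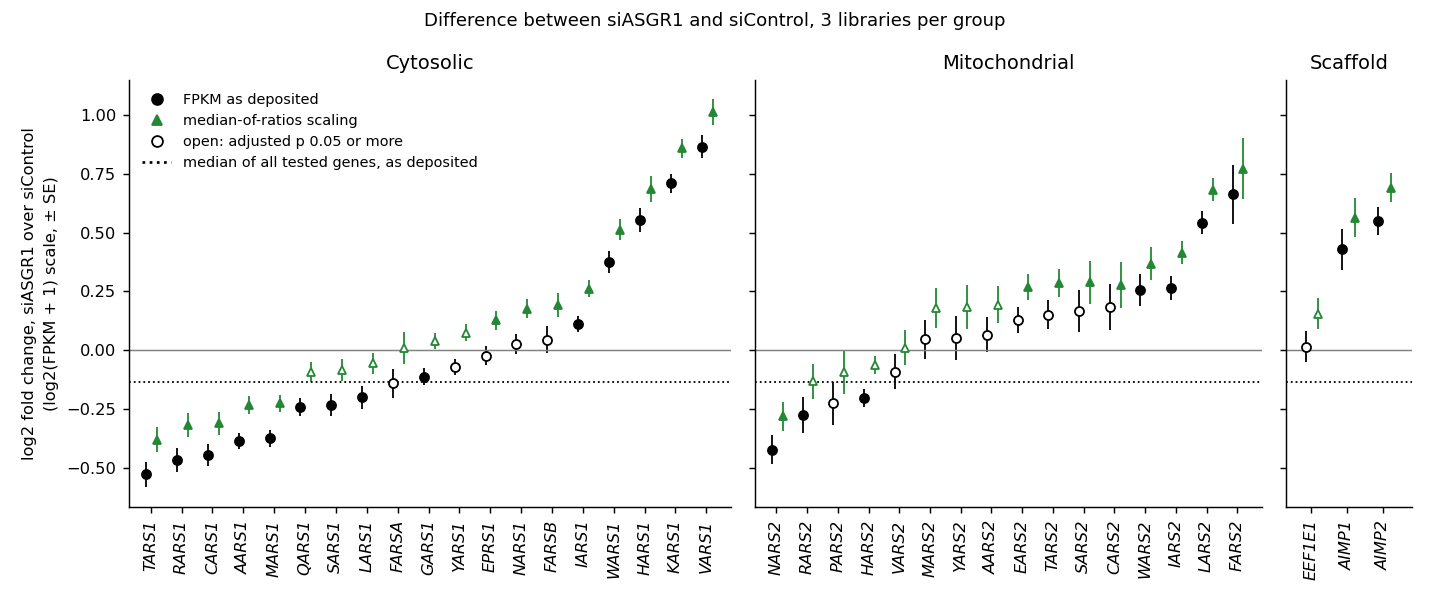
log2 fold change of siASGR1 over siControl (log2(FPKM + 1) scale, bars ± SE, 3 libraries per group), for FPKM as deposited (black circles) and with median-of-ratios scaling (green triangles), with open symbols where the adjusted p was 0.05 or more. The cytosolic set runs from -0.53 (TARS1) to 0.87 (VARS1), the dotted line marks the median of all tested genes, and the scaling lifts every gene.

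The cytosolic set included genes that fell and genes that rose. Of 19, 5 were higher and 9 lower as deposited (26.3% and 47.4%, against 20.9% and 40.4% of all tested genes). With median-of-ratios scaling 8 were higher and 5 lower (42.1% and 26.3%, against 29.9% and 28.9%). Quantile normalization gave 4 and 9 (21.1% and 47.4%, against 28.7% and 29.6%). The median log2 fold change was -0.11 as deposited, 0.04 with median-of-ratios scaling and -0.13 with quantile normalization, so the direction of the set as a whole depended on the scaling. The individual increases and decreases described next did not all share that dependence.

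TARS1, RARS1, CARS1, AARS1 and MARS1, the threonyl, arginyl, cysteinyl, alanyl and methionyl enzymes, were lower with every scaling tried. TARS1 (ENSG00000113407) was 35.8, 39.4 and 38.2 FPKM in the siControl libraries and 27.5, 24.8 and 25.4 in siASGR1. Every siASGR1 library lay below every siControl library, and the mean fell 1.46-fold (log2 fold change -0.53, SE 0.06, adjusted p = 0.000171). RARS1 was 38.3, 40.1 and 43.0 FPKM against 29.4, 29.3 and 28.1, with no overlap (log2 fold change -0.47, SE 0.05, adjusted p = 0.000205). CARS1, the lowest of these 5, was 8.51, 8.5 and 8.1 FPKM against 5.93, 5.97 and 5.76 (log2 fold change -0.44, SE 0.05, adjusted p = 0.000175). The spread within each CARS1 group was narrow beside the gap between the groups.

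AARS1 was 143.8, 143.7 and 140.0 FPKM in siControl and 107.6, 111.1 and 108.1 in siASGR1. The groups were far apart, and the fall of 1.31-fold in the mean (log2 fold change -0.38, SE 0.03, adjusted p = 8.12e-05) was the largest difference in FPKM among the 38 genes. MARS1 was 42.3, 43.3 and 43.4 FPKM against 32.7, 33.5 and 32.6 (log2 fold change -0.37, SE 0.03, adjusted p = 9.9e-05). MARS1 shares 355 exon bases, 5.05% of its own, with DDIT3 on the opposite strand, a gene named here after its values were seen. DDIT3 was 29.1 ± 2.71 FPKM in siControl and 15.7 ± 0.91 in siASGR1. The strand setting of the authors' counting is not given in the sources used here, so reads from overlapping genes on opposite strands cannot be told apart. With median-of-ratios scaling the log2 fold changes of these 5 genes were -0.38 (TARS1), -0.32 (RARS1), -0.31 (CARS1), -0.23 (AARS1) and -0.23 (MARS1).

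The other 4 decreases were smaller and held only for the values as deposited and for some alternatives. QARS1, the glutaminyl enzyme, was 87.1, 88.3 and 84.8 FPKM against 72.7, 75.6 and 71.2 (log2 fold change -0.24, adjusted p = 0.00128). SARS1, the seryl enzyme, was 31.8, 33.7 and 33.9 FPKM against 29.1, 28.0 and 27.0 (log2 fold change -0.23, adjusted p = 0.00359). LARS1, the leucyl enzyme, was 16.5, 17.1 and 17.9 FPKM against 15.1, 14.2 and 15.2 (log2 fold change -0.20, adjusted p = 0.00983). None of these 3 overlapped between groups, but LARS1 did not pass with quantile normalization (0.0621), and with median-of-ratios scaling the log2 fold changes of QARS1, SARS1 and LARS1 were -0.09, -0.08 and -0.06 and did not pass (adjusted p = 0.107, 0.151 and 0.324). GARS1 was 95.2, 94.2 and 94.3 FPKM against 88.8, 84.8 and 88.8, a log2 fold change of -0.11 (adjusted p = 0.0274) that turned to 0.04 with median-of-ratios scaling (adjusted p = 0.353). When libraries were left out singly, GARS1 passed only in the absence of siControl replicate 3 (adjusted p = 0.0464) and ranged from 0.0522 to 0.0914 for the other 5.

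VARS1, KARS1, HARS1 and WARS1, the valyl, lysyl, histidyl and tryptophanyl enzymes, were higher with every scaling tried. VARS1 (ENSG00000204394) was 23.2, 23.4 and 21.6 FPKM in siControl and 41.6, 44.2 and 40.9 in siASGR1. The lowest siASGR1 library exceeded the highest siControl library by a wide margin, and the mean rose 1.86-fold (log2 fold change 0.87, SE 0.05, adjusted p = 1.32e-05). KARS1 was 33.9, 35.2 and 34.0 FPKM against 57.6, 57.9 and 55.0, a 1.65-fold rise (log2 fold change 0.71, SE 0.04, adjusted p = 1.12e-05). Because the same gene makes the mitochondrial lysyl enzyme, the rise in KARS1 cannot be assigned to the cytosolic form from gene-level values. HARS1 was 5.55, 5.38 and 5.10 FPKM against 8.12, 8.63 and 8.17 (log2 fold change 0.55, SE 0.05, adjusted p = 0.000108), again with no overlap. WARS1 was 7.5, 7.96 and 7.55 FPKM against 10.5, 10.2 and 10.1 (log2 fold change 0.38, SE 0.05, adjusted p = 0.000353).

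IARS1, the isoleucyl enzyme, was the fifth cytosolic gene called higher. Its values were 53.6, 54.9 and 54.4 FPKM against 60.4, 57.6 and 58.3, without overlap, and the log2 fold change was 0.11 (adjusted p = 0.0282). Quantile normalization took IARS1 to 0.04 (adjusted p = 0.441). Omitting siControl replicate 1 gave an adjusted p of 0.101, omitting siControl replicate 2 gave 0.0604, omitting siASGR1 replicate 1 gave 0.104 and omitting siASGR1 replicate 3 gave 0.0696, so each of these ended the call. The remaining cytosolic genes were not called as deposited. EPRS1, which carries both the glutamyl and the prolyl activity on 1 polypeptide, was 57.5 ± 2.05 and 56.6 ± 1.26 FPKM. FARSA and FARSB, the alpha and beta subunits of the cytosolic phenylalanyl enzyme, were 58.7 ± 2.63 against 53.2 ± 4.01 FPKM and 24.3 ± 1.73 against 25.1 ± 0.55 FPKM.

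The mRNA of FARSA was more than that of FARSB in every library, and neither subunit gene was called. The log2 fold change of FARSA was -0.14 with all libraries and 0.01 with median-of-ratios scaling, and the gene passed as lower when siASGR1 replicate 2 was omitted (-0.20, adjusted p = 0.0198), with quantile normalization and with limma-voom. NARS1, the asparaginyl enzyme, was 45.2 ± 1.93 and 46.0 ± 0.82 FPKM. YARS1, the tyrosyl enzyme, was 23.9 ± 0.32 and 22.7 ± 0.15 FPKM: its libraries did not overlap, but its log2 fold change of -0.07 did not pass (adjusted p = 0.118) and was 0.08 with median-of-ratios scaling. EPRS1, FARSB and NARS1 were called higher with median-of-ratios scaling (log2 fold changes of 0.13, 0.19 and 0.18) but not with quantile normalization.

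The genes of the multisynthetase complex included increases and decreases. Of its 10 members in the list (7 synthetases and the 3 scaffold genes), 4 were higher (KARS1, IARS1, AIMP1 and AIMP2), 4 lower (RARS1, MARS1, QARS1 and LARS1) and 2 not called (EPRS1 and EEF1E1). All tested genes gave 20.9% higher and 40.4% lower, so the share of lower genes in the complex (40%) was that of the background. The share of higher genes (40%) was above it, on only 10 genes. The median log2 fold change of the 10 was -0.0037, from -0.47 (RARS1) to 0.71 (KARS1). With median-of-ratios scaling 5 were higher and 2 lower (50% and 20%), with a median of 0.14. Of all tested genes, 29.9% were higher and 28.9% lower with that scaling. The summed level was 355 to 366 FPKM in siControl and 355 to 361 FPKM in siASGR1, so these sums overlapped, whereas with median-of-ratios scaling they were 337 to 349 against 372 to 384 FPKM. Of the 12 synthetase genes whose products work outside the complex, 3 were higher and 5 lower (25% and 41.7%). With median-of-ratios scaling 5 were higher and 3 lower (41.7% and 25%). The sum of the 12 was 502 to 508 FPKM against 461 to 467 FPKM as deposited. After median-of-ratios scaling it was 473 to 484 against 483 to 498 FPKM, with overlap.

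Among the scaffold genes, AIMP2 and AIMP1 rose with every scaling tried and EEF1E1 was not called. AIMP2, which ties the subcomplexes together, was 10.5, 11.1 and 10.8 FPKM in siControl and 14.95, 16.9 and 17.0 in siASGR1. The groups did not overlap, and the log2 fold change was 0.55 (SE 0.06, adjusted p = 0.000197). AIMP2 shares 532 exon bases, 28.9% of its own, with EIF2AK1 on the opposite strand, and EIF2AK1 went the other way, from 78.2 ± 1.44 to 54.9 ± 1.64 FPKM. AIMP1, also the precursor of a secreted cytokine, was 6.54, 5.44 and 6.85 FPKM against 8.77, 8.15 and 9.41 (log2 fold change 0.43, SE 0.09, adjusted p = 0.00421). All 3 siASGR1 values exceeded the highest siControl value. AIMP1 shares 387 exon bases (11.6%) with TBCK on the opposite strand, which was at most 0.98 FPKM in the mean of either group. EEF1E1 was 10.4, 11.8 and 11.8 FPKM against 11.2, 12.2 and 10.97, and its log2 fold change of 0.02 (adjusted p = 0.849) was negative without siControl replicate 1 (-0.04) or siASGR1 replicate 2 (-0.03). EEF1E1 shares 393 exon bases (18.7%) with EEF1E1-BLOC1S5 on the same strand, which had means of 0.08 FPKM in siControl and 0 in siASGR1.

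In the mitochondrial set 4 of 16 genes were higher and 3 lower (25.0% and 18.8%, against 20.9% and 40.4% of all tested genes), with a median log2 fold change of 0.10. With median-of-ratios scaling 8 were higher and 1 lower, and with quantile normalization 9 and 2, with medians of 0.23 and 0.21. Of all tested genes, 29.9% were higher and 28.9% lower with median-of-ratios scaling, and 28.7% and 29.6% with quantile normalization. FARS2, LARS2, IARS2 and WARS2 (phenylalanyl, leucyl, isoleucyl and tryptophanyl) were higher with every scaling tried. NARS2 (asparaginyl) was lower with each of them.

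LARS2 (ENSG00000011376) was 10.1, 9.92 and 9.32 FPKM in siControl and 14.8, 14.2 and 15.2 in siASGR1. The mean rose 1.503-fold without overlap (log2 fold change 0.54, SE 0.05, adjusted p = 8.89e-05). FARS2 rose 1.92-fold in mean FPKM, with a wide spread among the siASGR1 libraries: 1.78, 2.05 and 1.77 FPKM against 2.80, 4.33 and 3.6. Its log2 fold change was 0.66 (SE 0.13, adjusted p = 0.00305), and it stayed between 0.55 and 0.79 when single libraries were left out. IARS2 was 57.0, 63.8 and 60.9 FPKM against 75.0, 72.1 and 71.5 (log2 fold change 0.26, SE 0.05, adjusted p = 0.0028). WARS2, at 2.50, 2.85 and 2.52 FPKM against 3.24, 3.45 and 3.27, also showed no overlap (log2 fold change 0.25, SE 0.07, adjusted p = 0.0136).

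NARS2 was 15.2, 14.1 and 15.7 FPKM in siControl and 11.3, 11.4 and 10.2 in siASGR1. Every siASGR1 library was below every siControl library (log2 fold change -0.42, SE 0.06, adjusted p = 0.000808), and after median-of-ratios scaling the value was -0.28. HARS2, the mitochondrial histidyl enzyme, was 12.8, 13.2 and 13.1 FPKM against 11.2, 11.1 and 11.3 (log2 fold change -0.20, adjusted p = 0.00346), and RARS2 (arginyl) was 15.1, 17.5 and 18.7 FPKM against 14.4, 13.9 and 13.4 (log2 fold change -0.28, adjusted p = 0.0168). Neither passed with median-of-ratios scaling, where their log2 fold changes were -0.06 and -0.13. RARS2 was no longer called with quantile normalization (adjusted p = 0.0551) or when siASGR1 replicate 3 was omitted (0.0547).

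The other 9 mitochondrial genes were not called as deposited. CARS2 (cysteinyl) was 1.5, 1.47 and 1.10 FPKM against 1.61, 1.75 and 1.66, and EARS2 (glutamyl) was 9.32, 10.1 and 8.96 FPKM against 10.5, 10.2 and 10.6, both without overlap. TARS2 (threonyl) was 7.05 ± 0.38 and 7.95 ± 0.48 FPKM and SARS2 (seryl) 3.603 ± 0.43 and 4.17 ± 0.37 FPKM. These 4 genes had log2 fold changes of 0.13 to 0.19 as deposited, with adjusted p of 0.0643 (TARS2), 0.0761 (EARS2), 0.138 (CARS2) and 0.141 (SARS2), and all 4 passed with median-of-ratios scaling (0.27 to 0.29) and with quantile normalization. As deposited, omitting a single library brought 3 of them past the threshold: siControl replicate 2 for EARS2 (adjusted p = 0.0317), siControl replicate 1 for SARS2 (0.0471) and siControl replicate 3 for TARS2 (0.0375). SARS2 shares 1492 exon bases (46.2%) with ENSG00000269547 on the same strand, which had a mean of 0 FPKM in both groups. It also shares 349 (10.8%) with MRPS12 on the opposite strand, at 21.9 ± 2.91 and 17.0 ± 2.03 FPKM, so the level of SARS2 is uncertain.

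PARS2, the prolyl enzyme, was 6.79, 8.34 and 6.45 FPKM against 5.63, 5.97 and 6.33, with a narrow gap and no overlap (log2 fold change -0.23, adjusted p = 0.0668). PARS2 passed when siControl replicate 3 was omitted (adjusted p = 0.0345), with limma-voom (0.0444) and when only genes of at least 5 FPKM were tested (0.0455). AARS2 (alanyl) was 5.29 ± 0.50 and 5.58 ± 0.31 FPKM, MARS2 (methionyl) 7.40 ± 0.79 and 7.65 ± 0.53 FPKM, and YARS2 (tyrosyl) 6.09 ± 0.79 and 6.33 ± 0.46 FPKM. These 3 overlapped between groups, and AARS2 passed as higher after quantile normalization (0.22, adjusted p = 0.0427). VARS2, the valyl enzyme, was 2.20, 2.19 and 1.99 FPKM against 2.06, 1.91 and 1.83 and overlapped as well (log2 fold change -0.09 as deposited and 0.01 with median-of-ratios scaling, adjusted p = 0.316 and 0.918). It shares 1858 exon bases (22.0%) with GTF2H4 on the same strand, which was 3.52 ± 0.42 and 2.73 ± 0.12 FPKM, so its level is uncertain.

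Dividing each cytosolic enzyme by its mitochondrial counterpart within a library removes the scaling between libraries. Of 17 such pairs, the cytosolic-to-mitochondrial ratio was lower in every siASGR1 library than in every siControl library for 11, higher for 3, and overlapped for 3. Among all tested genes taken singly, 67.3% did not overlap between groups. No such share was worked out for ratios of other gene pairs, so these counts have no baseline of their own. The 17 pairs are not independent, since FARSA and FARSB were both divided by FARS2 and EPRS1 was set against both EARS2 and PARS2. Ratios are descriptions with no p-value, because the pairs were formed from the chosen genes. A ratio shows unequal change and not which partner changed.

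**Figure D3:**
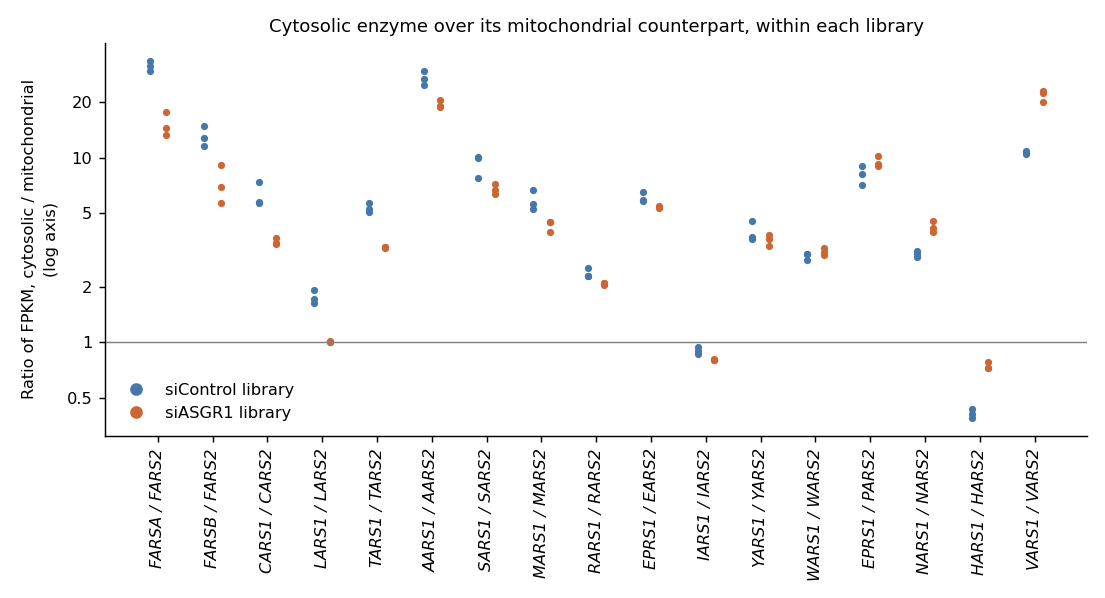
FPKM of each cytosolic synthetase divided by that of its mitochondrial counterpart, computed within each library (1 point per library, blue siControl, orange siASGR1, log axis), ordered from the largest fall to the largest rise. The siASGR1 points lie below the siControl points for 11 of 17 pairs and above them for NARS1/NARS2, HARS1/HARS2 and VARS1/VARS2.

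The largest falls in ratio were those with FARS2, CARS2, LARS2 and TARS2 as denominators. FARSA to FARS2 was 33.7, 29.4 and 31.4 in siControl and 17.7, 13.3 and 14.6 in siASGR1, a log2 difference of -1.06 (SE 0.13). LARS1 to LARS2 was 1.63, 1.72 and 1.92 against 1.02, 0.997 and 1.00, so the leucyl pair moved from a cytosolic excess to near equal levels (log2 difference -0.80, SE 0.07). TARS1 to TARS2 was 5.27, 5.72 and 5.10 against 3.24, 3.27 and 3.27 (log2 difference -0.72, SE 0.05), and the libraries of each group lay close together. The isoleucyl pair was one of only 2 with more mitochondrial than cytosolic mRNA in siControl: IARS1 to IARS2 was 0.90 ± 0.04 and 0.81 ± 0.01.

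HARS1 to HARS2 was the other pair below 1, and it moved in the opposite direction from most. The ratio was 0.43, 0.41 and 0.39 in siControl and 0.73, 0.78 and 0.72 in siASGR1 (log2 difference 0.86, SE 0.06). VARS1 to VARS2 rose from 10.5, 10.7 and 10.8 to 20.2, 23.1 and 22.3 (log2 difference 1.03, SE 0.06), and NARS1 to NARS2 from 3.01 ± 0.12 to 4.22 ± 0.30 (log2 difference 0.48, SE 0.07). The pairs of EPRS1 with PARS2, of the tryptophanyl enzymes and of the tyrosyl enzymes overlapped between groups.

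The histidyl pair is also a neighbouring pair in the genome. HARS1 and HARS2 are transcribed in opposite directions from RefSeq start sites 85 bases apart on chromosome 5, so 1 stretch of DNA lies upstream of both. It is shown because the 2 genes that flank it went in opposite directions. The bases between the start sites, chr5:140691371-140691454 (GRCh38.p14, plus strand, the HARS2 direction, RefSeq), are given with the ETS-type motif ACTTCCGG in capitals on either strand:
HARS1-HARS2: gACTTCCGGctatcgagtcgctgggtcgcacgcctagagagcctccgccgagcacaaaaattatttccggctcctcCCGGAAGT
The motif occurs 2 times here, once at each end. In gene models of GENCODE v29 the pair shares 437 exon bases on opposite strands, 5.56% of HARS1 and 11.7% of HARS2, so part of their reads cannot be assigned to 1 gene without strand. HARS1 rose by 0.55 and HARS2 fell by 0.20 on the log2 scale as deposited, while with median-of-ratios scaling only HARS1 passed, at 0.69.

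Promoters were then searched for short motifs in the RefSeq table, which holds 33 of the 38 genes with 45 windows, 1 to 3 per gene, each of 250 bases before a start site and 50 after it. A gene was counted once if any of its windows held a motif, and the same was done for all 27305 genes of the table. The letters TGATGNAA, searched on both strands, form the core to which ATF4 with a C/EBP partner is known to bind. They were found in 8 of the 33 genes (24.2%): 7 of 16 cytosolic, 1 of 14 mitochondrial and 0 of 3 scaffold, against 4.46% of all genes in the table. By window this was 8 of 45 (17.8%), against 3.62% of all 35116 windows. The stricter form TGATGCAA, which overlaps the first by definition, was in 6 of the 33 genes, all cytosolic, against 1.08% of all genes. The sequences of all 8 are shown because they carry this shared feature. Each reads along the gene's own strand (GRCh38.p14, RefSeq) and has the match in capitals, as TGATGNAA or its reverse complement TTNCATCA:
TARS1: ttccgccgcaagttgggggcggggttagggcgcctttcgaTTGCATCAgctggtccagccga
GARS1: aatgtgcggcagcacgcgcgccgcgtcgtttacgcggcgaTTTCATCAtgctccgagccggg
IARS1: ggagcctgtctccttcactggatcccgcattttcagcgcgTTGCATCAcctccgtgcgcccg
CARS1: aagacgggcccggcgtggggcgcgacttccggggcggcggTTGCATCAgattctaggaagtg
MARS1: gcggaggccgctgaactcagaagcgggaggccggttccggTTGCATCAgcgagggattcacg
AARS1: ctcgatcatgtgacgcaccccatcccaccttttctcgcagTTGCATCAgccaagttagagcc
NARS1: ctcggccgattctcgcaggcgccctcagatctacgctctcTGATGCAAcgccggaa
YARS2: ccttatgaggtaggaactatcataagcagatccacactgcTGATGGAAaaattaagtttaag

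These stretches lie at chr5:33440927-33440988 (TARS1, plus strand), chr7:30594805-30594866 (GARS1, plus), chr9:92293689-92293750 (IARS1, minus) and chr11:3057404-3057465 (CARS1, minus). The others lie at chr12:57488024-57488085 (MARS1, plus), chr16:70289672-70289733 (AARS1, minus), chr18:57621807-57621862 (NARS1, minus) and chr12:32756073-32756134 (YARS2, minus). In 5 of the cytosolic genes the match began within 33 bases before or 3 bases after the start site (MARS1 at -4, CARS1 at -2, IARS1 at -13, GARS1 at -33 and TARS1 at 3). It began at 15 in NARS1, at -187 in AARS1 and at -197 in YARS2. A match is a description of the letters and says nothing of whether a factor bound there in these cells.

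Changes in expression were counted separately for the 7 cytosolic genes with the motif and the 9 without it. Of the 7, 1 was higher (IARS1), 5 lower (TARS1, CARS1, AARS1, MARS1 and GARS1) and 1 not called (NARS1), with a median log2 fold change of -0.37. Of the 9, 3 were higher (KARS1, HARS1 and WARS1), 3 lower (RARS1, QARS1 and SARS1) and 3 not called, with a median of -0.02. With median-of-ratios scaling the counts were 2 higher and 4 lower with the motif, and 5 higher and 1 lower without it, with medians of -0.23 and 0.13. Of all tested genes, 40.4% were lower as deposited and 28.9% with that scaling. This split was noticed in genes chosen with results known and was not tested. LARS1, VARS1 and YARS1 are not among these 16 genes.

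**Figure D4:**
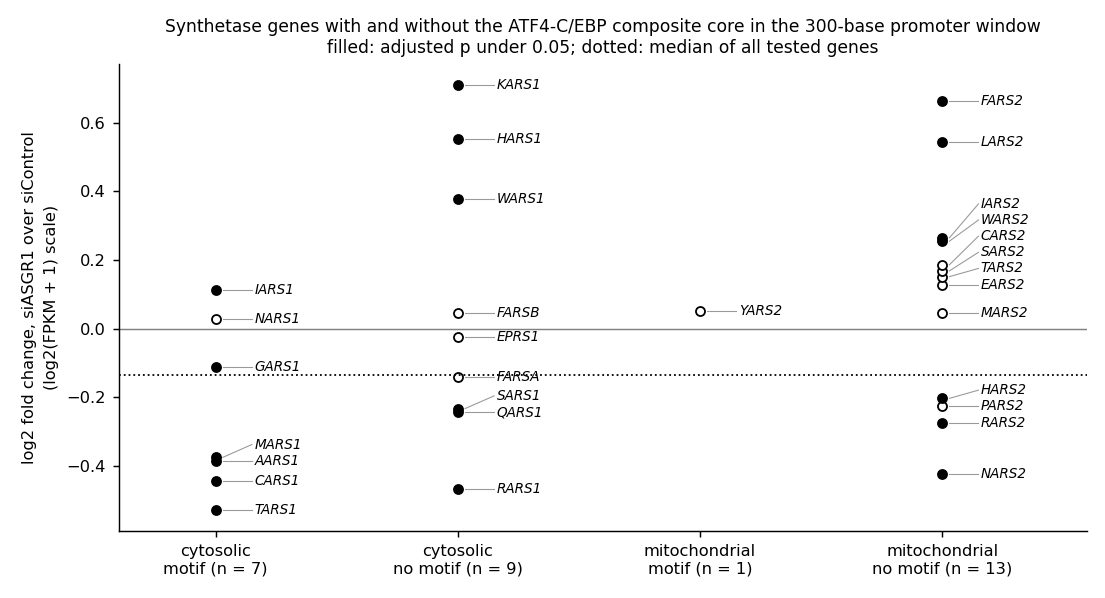
log2 fold change of siASGR1 over siControl (log2(FPKM + 1) scale, as deposited) for each synthetase gene with a promoter in the table, grouped by compartment and by presence of TGATGNAA in the 300-base window, with filled points at an adjusted p under 0.05 and a dotted line at the median of all tested genes. The cytosolic genes with the motif run from -0.53 (TARS1) to 0.11 (IARS1), and those without it from -0.47 (RARS1) to 0.71 (KARS1), so the 2 groups overlap.

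Other motifs were spread over both compartments. ACTTCCGG was in 8 of the 33 genes (CARS1, HARS1, NARS1, TARS1, WARS1, EARS2, HARS2 and PARS2), against 4.95% of all genes. The E-box CACGTG was in 5 genes (IARS1, CARS2, EARS2, MARS2 and AIMP2), against 8.77% of all genes. Members that rose and members that fell held the ETS-type motif, among them HARS1 and WARS1 on the one side and TARS1 and CARS1 on the other.

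Synthetases fall into 2 structural classes with unrelated catalytic domains. Of 18 class I genes of both compartments, 6 were higher and 6 lower (8 and 3 with median-of-ratios scaling). Of 16 class II genes, 3 were higher and 6 lower (7 and 3 with that scaling). The shares higher and lower were 33.3% and 33.3% for class I and 18.8% and 37.5% for class II as deposited, against 20.9% and 40.4% of all tested genes. EPRS1, which joins a class I and a class II enzyme, was left out of this split. Of the 13 cytosolic genes listed as ATF4 targets, 3 were higher and 7 lower, with a median of -0.11, and 5 and 4 with median-of-ratios scaling, with a median of 0.04. These shares (23.1% higher and 53.8% lower as deposited, 38.5% and 30.8% with that scaling) stand beside 20.9% and 40.4%, and 29.9% and 28.9%, of all tested genes. VARS1 and TARS1, which had the largest rise and the largest fall on the log2(FPKM + 1) scale, are both on that list.

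ATF4 itself and other genes of the amino acid response were examined next. ATF4 was 266.2, 259.3 and 249.1 FPKM in siControl and 208.6, 221.7 and 204.7 in siASGR1, without overlap. The log2 fold change was -0.29 (SE 0.05, adjusted p = 0.00135), and after median-of-ratios scaling it was -0.13 and did not pass (adjusted p = 0.0595). ATF4 is controlled largely through its translation, which RNA levels do not show. Of 18 genes of the amino acid response, ATF4 included, 3 were higher and 9 lower (6 and 7 with median-of-ratios scaling), with a median of -0.21. The shares as deposited, 16.7% and 50%, compare with 20.9% and 40.4% of all tested genes. With median-of-ratios scaling the shares were 33.3% and 38.9%, against 29.9% and 28.9%. ASNS, asparagine synthetase, fell from 39.0 ± 0.75 to 18.1 ± 0.30 FPKM (log2 fold change -1.07, adjusted p = 2.78e-06). CHAC1, a glutathione-degrading enzyme, fell from 33.8 ± 2.64 to 9.42 ± 0.35 FPKM, and SLC7A11, the cystine transporter, from 13.3 ± 1.07 to 3.48 ± 0.27 FPKM. On the log2 scale each of these 3 differences was larger in size than that of TARS1, the most reduced synthetase gene. The 3 were named as the called genes of smallest p in the list, a choice that favours large differences. Their size therefore does not describe the 18 genes, of which 3 were called higher.

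Of 9 eIF2 kinase and phosphatase genes with their partners, 2 were higher and 4 lower (3 and 4 with median-of-ratios scaling). For this list and the next ones, 20.9% of all tested genes were higher and 40.4% lower as deposited. With median-of-ratios scaling 29.9% of all tested genes were higher and 28.9% lower. PPP1R15A and PPP1R15B, which target the phosphatase that removes phosphate from eIF2, fell from 33.9 ± 0.19 to 14.7 ± 0.69 FPKM and from 77.3 ± 4.42 to 34.7 ± 1.76 FPKM. EIF2AK4, the kinase that senses uncharged tRNA, rose from 4.27 ± 0.37 to 5.12 ± 0.30 FPKM (log2 fold change 0.22, SE 0.07, adjusted p = 0.0335). Leaving out single libraries ended the EIF2AK4 call in 4 of 6 cases: the adjusted p was 0.0517 and 0.0809 in the absence of siControl replicate 1 and of siControl replicate 3, and 0.0917 and 0.106 in the absence of siASGR1 replicate 1 and of siASGR1 replicate 3. The tRNA maturation and export genes were mixed, with 4 of 19 tested genes higher and 4 lower (5 and 2 with median-of-ratios scaling). Among them XPOT, which exports tRNA from the nucleus, rose from 24.9 ± 0.91 to 32.7 ± 1.81 FPKM (log2 fold change 0.38, adjusted p = 0.000639), POP1 of ribonuclease P rose from 2.82 ± 0.10 to 5.62 ± 0.45 FPKM, and TSEN54 of the tRNA splicing endonuclease fell from 19.6 ± 2.02 to 12.3 ± 0.32 FPKM.

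Of 21 tested genes of RNA polymerase III and its factors, which transcribe tRNA genes, 6 were higher and 5 lower, and 10 and 1 with median-of-ratios scaling. These shares were 28.6% and 23.8% as deposited, against 20.9% and 40.4% of all tested genes. With median-of-ratios scaling they were 47.6% and 4.76%, against 29.9% and 28.9%. POLR3D, a subunit of the polymerase, fell from 12.8 ± 0.30 to 5.83 ± 0.30 FPKM, while POLR3B, another subunit, rose from 9.08 ± 0.91 to 15.04 ± 0.55 FPKM. GTF3A, on the same list, rose from 17.5 ± 1.16 to 34.9 ± 1.06 FPKM. Of 23 tested genes of mitochondrial translation, 9 were higher and 8 lower (9 and 5 with median-of-ratios scaling). HSD17B10, on this list, rose from 102.8 ± 6.08 to 167.1 ± 6.85 FPKM. GATB, of the amidotransferase that makes mitochondrial glutaminyl-tRNA in place of a separate synthetase, rose from 1.37 ± 0.09 to 3.02 ± 0.11 FPKM. Of its partner subunits, named after their values were seen, QRSL1 was called higher (log2 fold change 0.30) and GATC lower (-0.26, adjusted p = 0.0159), and GATC did not pass with median-of-ratios scaling (adjusted p = 0.167) or when siASGR1 replicate 3 was omitted (0.0548). MTFMT, which formylates the methionyl-tRNA made by MARS2, rose from 6.06 ± 0.33 to 9.48 ± 0.29 FPKM, while MARS2 itself was not called.

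Downstream of the synthetases, 2 of 7 tested cytosolic elongation genes were higher and 3 lower (3 and 2 with median-of-ratios scaling). EEF1A2 fell from 13.1 ± 1.15 to 1.40 ± 0.24 FPKM (log2 fold change -2.56, adjusted p = 3.1e-06). EEF2, which moves the ribosome along the mRNA, fell from 1089 ± 75.1 to 755 ± 7.73 FPKM, and EIF5A rose from 111 ± 2.27 to 152 ± 8.43 FPKM. The counts of these smaller lists are to be read against 20.9% higher and 40.4% lower of all tested genes as deposited. With median-of-ratios scaling the shares of all tested genes were 29.9% and 28.9%. Of 5 tested genes that correct or recycle charged tRNA, 2 were higher and 3 lower (2 and 1 with median-of-ratios scaling). PTRH2, a peptidyl-tRNA hydrolase, fell from 13.4 ± 0.21 to 8.02 ± 0.20 FPKM. DTD1, which removes D-amino acids from tRNA, rose from 9.10 ± 0.65 to 12.1 ± 0.52 FPKM. AARSD1, an editing protein for alanine tRNA charged with a wrong amino acid, was 6.01 ± 0.14 and 5.0 ± 0.22 FPKM. AARSD1 passed as deposited (log2 fold change -0.22) but not with median-of-ratios scaling (-0.10) or quantile normalization (-0.07).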

How the data were processed

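RNA from 6 libraries of Huh7 cells had been sequenced after TruSeq library preparation from total RNA, per the labels' protocols. Per the submitters' processing notes, the authors worked with HISAT2 2.0.1 on hg19, with cutadapt 1.9.1 and with bcl2fastq 2.17.1.14. How reads were counted, with which gene models and with what use of strand, is not given in the sources used here. Values the authors deposited, in 1 table and in single files per library, are FPKM rounded to 2 decimals, although the design written for this work also allowed for counts. Each value is thus relative to the total of its library. Symbols were found for 51996 of 57905 IDs. GENCODE v29 exon lengths and the spacing of low values gave the depth: between 94.9% and 95.4% of the low values were then whole reads to within their rounding, where chance gives 8.1% to 9.63%.

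The 13568 genes that reached an FPKM of 1 in 3 or more libraries were fitted with limma 3.58.1 in R 4.3.3 on log2(FPKM + 1), with group as the only term, a prior that follows expression, two-sided tests and Benjamini-Hochberg adjustment over all tested genes. The threshold was an adjusted p of 0.05. The log2 scale with 1 added understates changes of low genes. The fit was tested on simulated data in which most genes did not change, so that test does not bear on the choice of scaling. The members and all lists were chosen with earlier results of these data known. All 38 members are named, and of each other list at most 3 called genes of smallest p, with ATF4, XPOT, EIF2AK4 and ASGR1 whatever their values. Alternatives covered scaling, pseudocount, filters, prior, limma-voom on rebuilt reads, the single files, a replicate block and leaving out each library. Coordinates and exon overlaps are those of GENCODE v29 (GRCh38) and promoters those of RefSeq (GRCh38.p14), since the table carries none. Remaining steps used matplotlib 3.10.9, pandas 2.3.3, numpy 2.4.6 and Python 3.11.15.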

Additional observations from a re-analysis of the deposited data

How the results depend on the processing

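Scaling changed more calls among these genes than any other alternative. With median-of-ratios scaling 8 cytosolic genes were higher and 5 lower, and 8 mitochondrial genes were higher and 1 lower. The log2 fold changes of EPRS1 (0.13), FARSA (0.0091), GARS1 (0.039), YARS1 (0.075) and VARS2 (0.010) became positive. With factors taken over all genes above 0, an alternative chosen after seeing the data, 4528 genes were higher and 3494 lower, with 9 and 5 of the cytosolic and 9 and 1 of the mitochondrial genes, and the same 5 genes were positive (0.18, 0.060, 0.091, 0.12 and 0.045). With quantile normalization 9 mitochondrial genes were higher, NARS1 was -0.023 and VARS2 0.11. Testing only genes of at least 5 FPKM left 3382 genes lower and 2 mitochondrial genes higher, with fewer of them tested. The cause of the other changes was not tested.

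Leaving out 1 library at a time gave 6988 to 7711 called genes (2411 to 2741 higher, 4433 to 5095 lower), with 4 to 5 higher and 8 to 9 lower cytosolic genes, 4 to 5 higher and 2 to 4 lower mitochondrial genes, and 2 higher and 0 lower scaffold genes. The log2 fold change changed sign in that range for MARS2 (-0.033 to 0.098), YARS2 (-0.042 to 0.11) and EEF1E1 (-0.040 to 0.045). The labels do not say what the replicate numbers shared between groups stand for. Deviations of same-numbered libraries correlated at -0.02, 0.00 and 0.01, and those of differently numbered ones at -0.05 to 0.05. These values show no sign of pairing, but with 3 libraries per group they cannot exclude a shared batch or culture. With the replicate block 8064 genes were called (2761 higher, 5303 lower), with 4 higher and 8 lower cytosolic genes, since GARS1 (adjusted p = 0.061) and IARS1 (0.0708) no longer passed; no other call on the 38 genes changed, and of the other genes named EIF2AK4 no longer passed (0.0674). The rebuilt reads behind a value were fewest for FARS2 (140 in 1 library) and WARS2 (158).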
